A study of Neurospora crassa with 22 samples.

Results

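Woronin bodies are dense-core organelles of filamentous ascomycetes that plug the septal pore when a hypha is cut, so that cytoplasm is not lost from the neighboring compartments. They arise from peroxisomes. The matrix protein HEX-1, encoded by *hex-1*, is imported through the peroxisomal import receptor PEX5 and assembles into the solid core, and the membrane protein WSC, encoded by *wsc*, wraps the growing core and directs its sorting to the cell cortex. The members described here are these 2 genes, taken by their locus identifiers: *hex-1* (NCU08332, LG I 5727235 to 5728917 of the NC12 assembly, 1 annotated transcript) and *wsc* (NCU07842, LG III 1066817 to 1069356, 2 annotated transcripts, NCU07842T0 and NCU07842T1). They account for 3 of the 10785 transcripts and 2 of the 9730 genes in the expression table.

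Expression was measured by RNA-seq of *Neurospora crassa* conidia germinated for 5 hr in glucose minimal medium, in a wild-type strain and in the *hH1* mutant, which lacks the linker histone H1. There were 3 replicate libraries for each strain, and the labels do not say whether each came from its own culture, so the tests measure the spread between these libraries. The labels give the mutant only as *hH1*. The strain list of the study has 1 *hH1* deletion strain, from the *Neurospora* gene knockout project, and wild types of both mating types. It also lists a strain in which *hH1* was inactivated by repeat-induced point mutation. The RNA-seq labels name no strain. Each library is called here by its strain and a number that only follows the column order, since the replicate numbers of the labels are not tied to the columns.

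Values are FPKM, in which the fragments of a transcript are scaled to its length and to a library size, so that genes can be compared. How the library sizes were set is not given in the sources used here. The transcripts of a gene were summed. The wild-type libraries summed to between 551935 and 572043 FPKM and the mutant libraries to between 626049 and 639266 FPKM, or 595838 to 601874 FPKM without *gpd-1*, which was listed at 0 in every wild-type library. The *hH1* transcript itself was at 266 to 327 FPKM in the wild type and at 2.06 to 9.35 FPKM in the mutant. The tissue label of these libraries is mycelium. The conidial genes *con-6*, *con-10* and *con-13* had mean wild-type levels of 0.599, 1.08 and 0 FPKM. The other conidial genes examined, *al-1*, *al-3*, *eas* and *con-8*, were higher, at 5.62, 7.75, 5.98 and 6.48 FPKM. The 7 conidial genes summed to 26.2 to 29.7 FPKM in the wild type and 28.3 to 55.8 FPKM in the mutant. The 5 genes of growing cells (*act*, *Bml*, *tba-1*, *cot-1* and *pma-1*) summed to between 2218 and 2992 FPKM over the 6 libraries. Mutant library 1 listed 2185 genes at 0, and the other 5 libraries listed 1577 to 1712.

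*hex-1* was among the most abundant transcripts in the germinating conidia of both strains. Its level was 3316, 5036 and 3190 FPKM in the wild-type libraries and 5671, 5804 and 5927 FPKM in the mutant libraries. Every mutant library was above every wild-type library, but wild-type library 2 lay nearer to the mutant libraries than to the other wild-type libraries. The mean was 3847 ± 1032 FPKM in the wild type (SD, n = 3) and 5801 ± 128 FPKM in the mutant (SD, n = 3).

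The difference between the strains in *hex-1* missed the threshold. The change was 0.62 on the log2(FPKM + 1) scale (standard error 0.17, 95% interval 0.25 to 0.99), a 1.54-fold higher level in the mutant, with an unadjusted p of 0.00362 and an adjusted p of 0.0586 (limma, two-sided, Benjamini-Hochberg over the 7208 genes whose mean reached 1 FPKM). Of these genes, 4.99% were called at an adjusted p under 0.05, and 32.3% did not overlap between the strains, with 10.4% of all tested genes higher in the mutant and without overlap, as *hex-1* was. The libraries weighed unequally in this result. Without wild-type library 2 the change was 0.83 and passed the threshold (adjusted p = 0.0207, limma), whereas quantile normalization, which gives all libraries the same distribution, reduced it to 0.14 (adjusted p = 0.656, limma). Its adjusted p lay between 0.0207 and 0.656 in the 15 alternatives, and 4 of them were under 0.05.

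**Figure D1:**
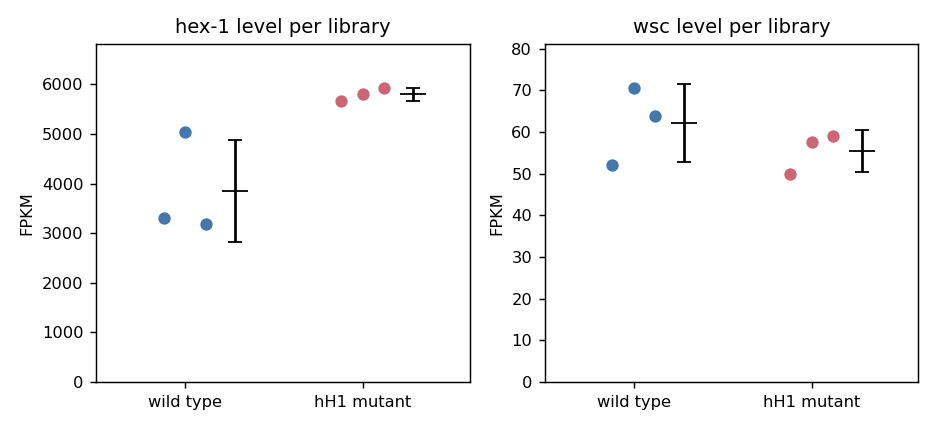
Levels of *hex-1* (left) and *wsc* (right) in FPKM, with 1 point per library (blue, wild type; red, *hH1* mutant) and the mean with SD as a bar beside the 3 points. The mutant libraries for *hex-1* lie between 5671 and 5927 FPKM, above all wild-type libraries, and the strains overlap for *wsc*.

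The place of *hex-1* in the order of all genes moved little. It was ranked 13, 8 and 14 of the 9730 genes in the wild-type libraries and 12, 10 and 9 in the mutant libraries, so the ranks of the strains overlapped. By the mean of each strain, 11 genes were above *hex-1* in the wild type and 9 in the mutant. As a share of all FPKM in a library, *hex-1* held 0.601%, 0.887% and 0.558% in the wild type and 0.887%, 0.922% and 0.947% in the mutant. Wild-type library 2 and mutant library 1 thus had the same share to this precision. The glycolytic gene *gpd-1* was at 29444 to 37393 FPKM in the mutant. With it left out of the sums, a choice made after the values were seen, the shares in the mutant were 0.942%, 0.968% and 0.995%.

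Most of the other highly expressed genes also had a positive change in the fit as reported, but not with quantile normalization. Among the 25 genes with the highest mean over the 6 libraries, *hex-1* was number 10. One of the 25 was *gpd-1*, which entered through the mutant alone and is left out here. Of the other 24, 20 had a positive log2 change, beside 39.9% of all tested genes. The strains did not overlap in 10, with the mutant higher, beside 10.4% of all tested genes. Only 1 of the 24, *ccg-16*, was called higher (limma; 1.73% of all tested genes were), and it alone had a larger change than *hex-1*. The median change of the 24 genes was 0.21, and that of all tested genes was -0.09. With quantile normalization 8 of the 24 were positive and their median was -0.11. The part of this in the value of *hex-1* was not tested.

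The wide spread of *hex-1* in the wild type depended on wild-type library 2. Its standard deviation of log2(FPKM + 1) was 0.37 over the 3 wild-type libraries and 0.032 over the mutant libraries. Without wild-type library 2, left out after the values were seen, the wild-type value was 0.039, from 2 libraries. The median wild-type value of the 25 genes highest in mean also fell, from 0.11 to 0.083.

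The genes next to *hex-1* in wild-type level were NCU04276 above it and *ccg-16*, a clock-controlled gene, below it. NCU04276 was at 3911 ± 625 FPKM in the wild type and 5089 ± 1131 FPKM in the mutant (SD, n = 3), which did not differ beyond the spread (adjusted p = 0.203, limma). *ccg-16* was at 2607, 3870 and 3370 FPKM in wild type and at 7198, 5848 and 5315 FPKM in the mutant. It rose by 0.91 on the log2 scale (standard error 0.17, adjusted p = 0.0187, limma), a call that was lost without wild-type library 1 (0.75, adjusted p = 0.107) and in 6 of the 15 alternatives.

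The level of *wsc* was much lower than that of *hex-1* and did not separate the strains. It was 51.9, 70.5 and 63.7 FPKM in the wild-type libraries and 49.8, 57.6 and 59.1 FPKM in the mutant libraries. The strains overlapped, since the highest mutant libraries were above wild-type library 1. The mean was 62.1 ± 9.40 FPKM in the wild type and 55.5 ± 4.99 FPKM in the mutant (SD, n = 3). The change was -0.15 on the log2 scale (standard error 0.14, 95% interval -0.47 to 0.17, adjusted p = 0.522, limma), close to the median of -0.09 over all tested genes. Wild-type library 2 was the highest wild-type library for *wsc*, as it was for *hex-1*.

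*wsc* was ranked between 1159 and 1520 of the 9730 genes. Its neighbors in wild-type level were *chs-5*, a chitin synthase gene, at 62.2 ± 6.72 FPKM and *rpn-11*, which encodes a subunit of the proteasome lid, at 62.0 ± 12.4 FPKM (SD, n = 3). They were taken for being nearest in this mean. In the mutant *chs-5* was at 47.3 ± 1.79 FPKM and *rpn-11* at 75.0 ± 5.86 FPKM (SD, n = 3), and neither was called (adjusted p = 0.0998 and 0.262, limma).

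**Figure D2:**
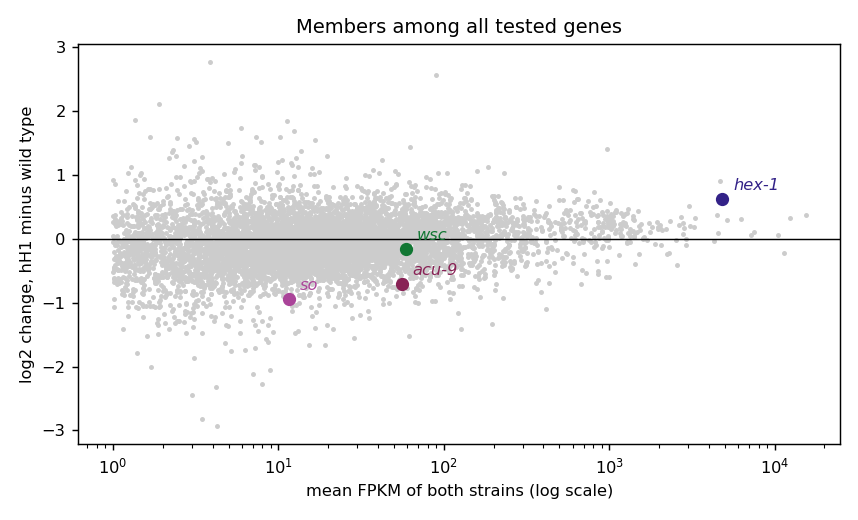
Each grey point is a tested gene, with its mean FPKM over both strains on a log axis and its log2 change, *hH1* minus wild type, on the vertical axis; 4 genes with a change beyond 3 lie outside the plot. *hex-1* stands at the right with a change of 0.62, *wsc* near the middle of the cloud at -0.15, and the called genes *so* and *acu-9* below it.

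The annotation divides *wsc* into a pair of transcripts, and NCU07842T0 carried nearly all of the signal. It was at 47.8, 65.4 and 57.0 FPKM in wild type and at 49.8, 51.5 and 55.4 FPKM in the mutant. NCU07842T1 was at 4.19, 5.14 and 6.73 FPKM in wild type and at 0, 6.10 and 3.64 FPKM in the mutant. The minor transcript was thus present in 5 libraries and listed at 0 in mutant library 1.

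NCU07842T0 made up 91.9%, 92.7% and 89.4% of *wsc* in the wild type and 100%, 89.4% and 93.8% in the mutant. The mean share was 91.4 ± 1.71% in the wild type and 94.4 ± 5.33% in the mutant (SD, n = 3). The difference of 3.05 percentage points was not larger than the spread (two-sided exact permutation test over 20 labelings, p = 0.5, adjusted p = 0.5 over the 2 permutation tests reported, where 0.1 is the smallest p possible). Without mutant library 1 the difference was 0.258 percentage points, and without mutant library 2 it was 5.56, the lowest and highest with each library left out. A value of 0 can be a failed estimate as well as an absence of fragments. Mutant library 1 listed the second transcript at 0 in 60 of the 540 genes that have 2 transcripts and at least 10 FPKM in the wild type, and the other 5 libraries listed 22 to 38 of them at 0. Over these 540 genes the second transcript held a median of 61.7% of the wild-type level, against 8.63% for *wsc*, and 16.5% of the genes had a lower share than *wsc*.

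**Figure D3:**
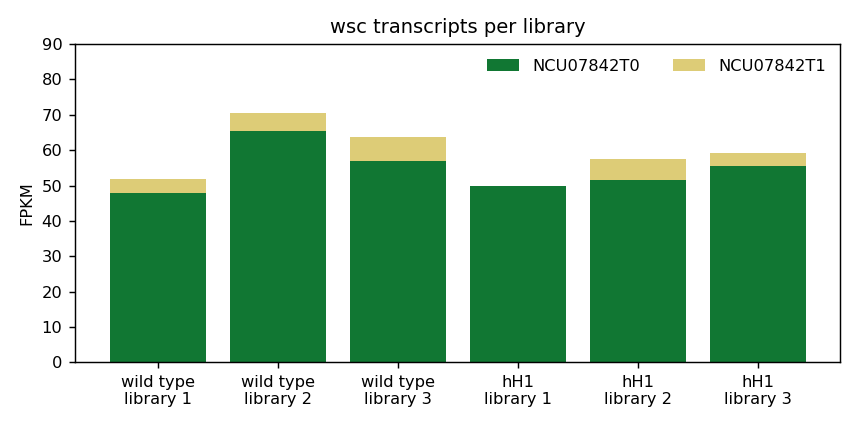
Bars give the FPKM of *wsc* in each of the 6 libraries, divided into NCU07842T0 (green) and NCU07842T1 (yellow). NCU07842T1 is between 3.64 and 6.73 FPKM where it is seen and is listed at 0 in mutant library 1.

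The proportion of core protein transcript to sorting protein transcript was higher in all mutant libraries. The ratio of *hex-1* to *wsc* FPKM, which does not change when a library is multiplied by a constant, was 63.8, 71.4 and 50.0 in the wild type and 114, 101 and 100.4 in the mutant. The strains did not overlap. On the log2 scale the ratio was 5.93 ± 0.26 in the wild type and 6.71 ± 0.10 in the mutant (SD, n = 3), a difference of 0.78 with p = 0.1 (two-sided exact permutation test over 20 labelings, adjusted p = 0.2 over the 2 permutation tests). This is the smallest p that 3 libraries against 3 allow, so the test could not reach the threshold. The difference was 0.64 to 0.89 when each library was left out in turn, and 0.73 when only NCU07842T0 was counted for *wsc*. A scaling that depends on the level of a gene does not cancel in this ratio. With quantile normalization the changes of *hex-1* and *wsc* were 0.14 and -0.13, and the ratio was not computed there.

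A like pattern was seen against the import receptor gene. The ratio of *hex-1* to *pex5* was 69.0, 101 and 67.8 in the wild type and 154, 117 and 109 in the mutant. The strains again did not overlap. This ratio was chosen after the values were seen and was not tested. It shares its *hex-1* values with the ratio to *wsc*, so it is not a separate result.

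**Figure D4:**
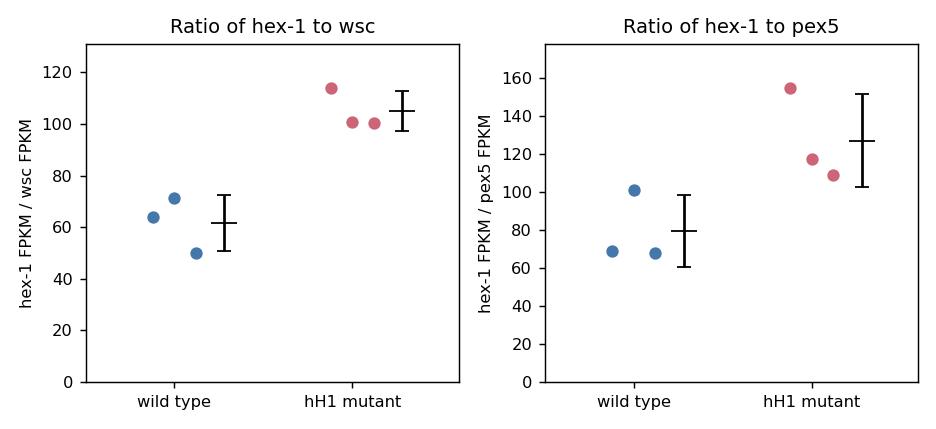
Ratios of *hex-1* FPKM to *wsc* FPKM (left) and to *pex5* FPKM (right), with 1 point per library (blue, wild type; red, *hH1* mutant) and the mean with SD beside them. Ratios to *wsc* lie between 50.0 and 71.4 in the wild type and between 100.4 and 114 in the mutant.

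The peroxins are the proteins that build peroxisomes and import their matrix proteins, HEX-1 included. The gene table names 20 of them by symbol or synonym, and all were tested. Of these, 0 passed the threshold in either direction (limma) and 2 had an unadjusted p under 0.05, beside 4.99% of all tested genes called and 25.9% with an unadjusted p under 0.05. Their changes ranged from -0.39 to 0.51 with a median of -0.01, and 9 were positive and 11 negative, beside 39.9% of all tested genes positive. With centring on the library medians and with the length trend removed, 13 were positive and 7 negative, beside 51.4% and 49.7% of all tested genes positive. Summed over the list, the level was 405 to 434 FPKM in the wild type and 398 to 469 FPKM in the mutant. Every peroxin was far below *hex-1*.

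*pex5*, the receptor for the carboxy-terminal targeting signal by which HEX-1 is imported, was at 48.1, 49.8 and 47.1 FPKM in wild type and at 36.7, 49.5 and 54.6 FPKM in the mutant. The strains overlapped, with mutant library 1 the lowest and mutant library 3 the highest of all. Its change was -0.06 (95% interval -0.40 to 0.28, adjusted p = 0.833, limma). The docking complex that receives the loaded receptor at the membrane is formed by the products of *pex13*, *pex14* and *pex33*. These genes were at similar wild-type means of 48.0 ± 2.82, 53.7 ± 6.68 and 58.0 ± 10.9 FPKM (SD, n = 3), and *pex33* was the highest peroxin. Their changes were -0.12, -0.0025 and 0.19, with adjusted p-values of 0.577, 0.993 and 0.411 (limma).

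*pex20*, a co-receptor of the other import route, was the lowest peroxin. It was at 1.46, 0.679 and 2.24 FPKM in wild type and at 2.28, 2.04 and 2.89 FPKM in the mutant, and it was not called (adjusted p = 0.315, limma). *pex4*, which encodes the ubiquitin-conjugating enzyme that recycles the receptor, was at 11.7, 16.3 and 17.0 FPKM in wild type and at 20.3, 20.0 and 23.0 FPKM in the mutant. Its strains did not overlap, with the mutant higher, as in 10.4% of all tested genes. It missed the threshold with a change of 0.48 (standard error 0.17, adjusted p = 0.112, limma).

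*pex3* and *pex8* did not overlap in the other direction, beside 21.8% of all tested genes. *pex3*, which is needed to insert peroxisomal membrane proteins such as WSC, was at 20.3 ± 2.85 FPKM in the wild type and 15.3 ± 2.77 FPKM in the mutant (SD, n = 3), with a change of -0.39 (adjusted p = 0.186, limma). *pex8* was at 20.0 ± 1.58 FPKM in the wild type and 16.4 ± 2.02 FPKM in the mutant (SD, n = 3), with a change of -0.27 (adjusted p = 0.272, limma). *pex11*, a gene of peroxisome proliferation, was at 18.4 ± 5.41 FPKM in the wild type and 24.7 ± 3.54 FPKM in the mutant (SD, n = 3), and its strains overlapped (adjusted p = 0.206, limma).

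Enzymes of the peroxisomal matrix share the compartment in which HEX-1 is first deposited. Only 3 genes were matched, by symbol or synonym from a short list, so they do not stand for the class. Of these, 1 was called, and in all 3 every mutant library was below every wild-type library, as in 21.8% of all tested genes. Their median change was -0.48, beside -0.09 for all tested genes, of which 3.26% were called lower. With the length trend removed the median was -0.29, beside -0.0012 for all tested genes, and all 3 changes stayed negative. *acu-9*, the malate synthase gene of the glyoxylate cycle, was at 72.6, 54.0 and 81.2 FPKM in wild type and at 36.7, 39.0 and 49.8 FPKM in the mutant. It fell by 0.71 on the log2 scale (standard error 0.18, adjusted p = 0.0474, limma). This call was close to the threshold and was lost in 11 of the 15 alternatives, including that without wild-type library 1, without wild-type library 3 and without each of the 3 mutant libraries (adjusted p = 0.0519 to 0.189, limma).

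*acu-3*, the isocitrate lyase gene of the same cycle, was at 72.7 ± 6.51 FPKM in the wild type and 55.0 ± 9.71 FPKM in the mutant (SD, n = 3, adjusted p = 0.129, limma). *fox-2*, which encodes the multifunctional enzyme of fatty acid oxidation, was at 26.3 ± 3.93 FPKM in the wild type and 18.6 ± 3.26 FPKM in the mutant (SD, n = 3, adjusted p = 0.119, limma). *hex-1* thus stood on the other side of the wild type from these matrix enzymes in every mutant library. The difference between their changes was not tested.

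At the septal pore, the gene table names *so* (NCU02794, LG I 9109342 to 9114311). Its product gathers at the plugged pores of injured hyphae and also acts in the fusion of germlings. *so* was at 15.1, 16.7 and 14.7 FPKM in wild type and at 6.49, 8.73 and 7.67 FPKM in the mutant. Every mutant library was under the lowest wild-type library. Of all tested genes, 21.8% were lower in the mutant without overlap and 3.26% were called lower. *so* fell by 0.94 on the log2 scale (standard error 0.16, 95% interval -1.30 to -0.58, adjusted p = 0.0145, limma), a factor of 0.520 in FPKM + 1. The gene spans 4970 bases. With the trend of each library with gene length removed, the change was -0.65 and the call was lost (adjusted p = 0.0514, limma). It was also lost with transcripts tested one by one (adjusted p = 0.0530), without wild-type library 1 (adjusted p = 0.0860) and without wild-type library 2 (adjusted p = 0.0570, limma).

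The search for septal pore genes by symbol also matched *spa2*, the name of a polarisome scaffold in yeast. It was at 8.96 ± 1.77 FPKM in the wild type and 6.82 ± 0.141 FPKM in the mutant (SD, n = 3). Its strains did not overlap, with the mutant lower, and it was not called (adjusted p = 0.262, limma). The leashin genes, whose products tether Woronin bodies to the cortex, were not matched by name and are not analysed here.

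Of 5 genes that act in forming the septa where Woronin bodies come to rest, 0 passed the threshold (limma) and 2 had an unadjusted p under 0.05. Over all tested genes these shares were 4.99% and 25.9%. All 5 changes were negative, with a median of -0.19 beside -0.09 for all tested genes. With the length trend removed the median was -0.02, and *bud4* and *rgf3* were positive, as they also were with centring and quantile normalization. *bni1*, a formin gene, was at 23.3, 23.8 and 22.0 FPKM in wild type and at 18.6, 15.9 and 16.5 FPKM in the mutant, and did not overlap (adjusted p = 0.0952, limma), as for 21.8% of all tested genes in this direction. *bud3* was at 8.30 ± 0.587 FPKM in the wild type and 5.99 ± 0.616 FPKM in the mutant (SD, n = 3), also without overlap (adjusted p = 0.159, limma). Both are long genes, of 7135 and 6508 bases, and with the length trend removed their adjusted p-values were 0.867 and 0.841 (limma). *rho-4*, which encodes the GTPase of septation, and *bud4* and *rgf3* overlapped between the strains, with adjusted p-values of 0.502, 0.785 and 0.802 (limma).

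**Figure D5:**
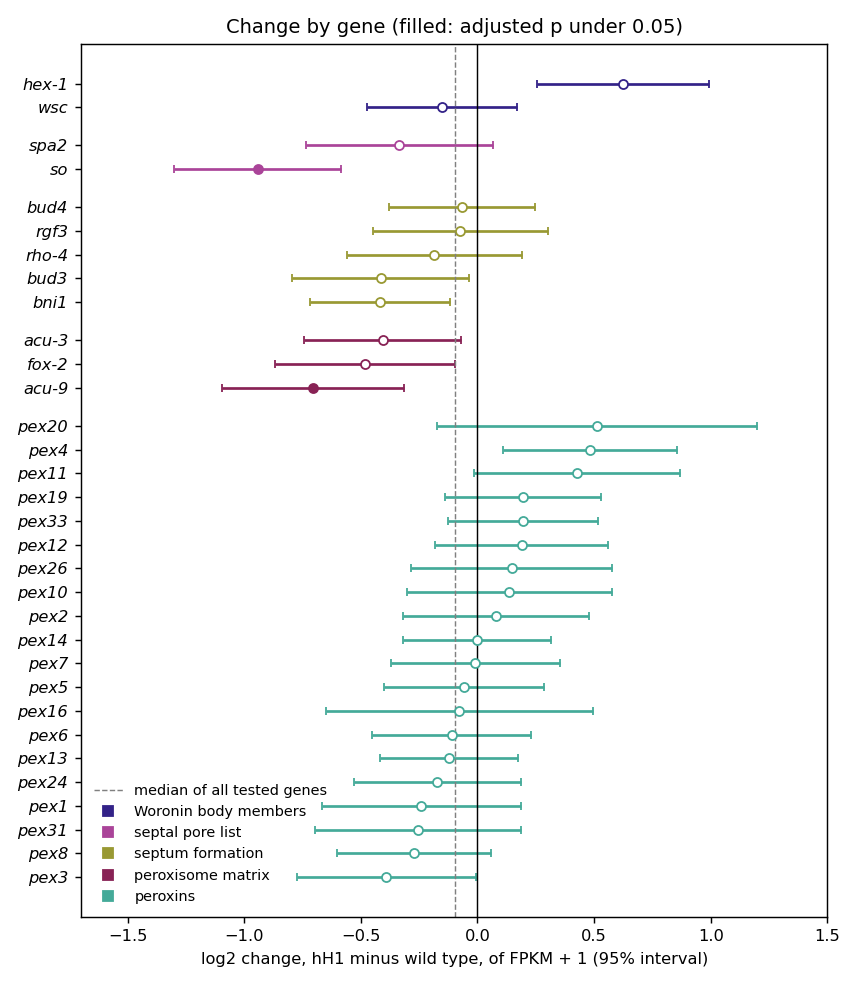
Log2 change, *hH1* minus wild type, with its 95% interval for *hex-1*, *wsc* and the genes of the 4 lists, with 1 row per gene and filled points for an adjusted p under 0.05. Only *so* and *acu-9* are filled, *hex-1* lies at 0.62, and the dashed line marks the median of all tested genes at -0.09.

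*hex-1* is 1683 bases long and *wsc* 2540 bases, measured as gene spans with introns. With the length trend removed, the change of *hex-1* was 0.56 (adjusted p = 0.107, limma) and that of *wsc* -0.08 (adjusted p = 0.778, limma).

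Of the 8 genes next to *hex-1* and *wsc* on their linkage groups, 7 were tested, and 0 of them were called (limma; 0 had an unadjusted p under 0.05), beside 4.99% and 25.9% of all tested genes. *hex-1* overlaps NCU16405 by 392 bases at its right end. NCU16405 was at 197, 219 and 194 FPKM in wild type and at 152, 189 and 185 FPKM in the mutant, so it lay on the other side of the wild type from *hex-1* (change -0.22, adjusted p = 0.285, limma). The libraries were strand-specific, but the strand setting of the counting is not given in the sources used here, so reads in the overlap may be assigned to either gene. NCU08333, on the left at a gap of 152 bases, was at 57.3 ± 2.64 FPKM in the wild type (SD, n = 3) and at 46.7 to 69.9 FPKM in the mutant. The next genes out, NCU08334 and NCU09191, were at wild-type means of 16.3 and 12.1 FPKM, and neither was called.

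*wsc* overlaps NCU07843 by 197 bases. NCU07843 was at 12.5 ± 2.64 FPKM in the wild type and 10.4 ± 0.860 FPKM in the mutant (SD, n = 3, adjusted p = 0.431, limma). On the other side NCU07841 was nearly silent, at 0.646 FPKM in the wild type, and was under the level needed for the test. NCU07840 and NCU07844 were at wild-type means of 2.68 and 9.86 FPKM, and neither was called.

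The genes whose profile over the 6 libraries was most like that of *hex-1* were NCU08018, NCU05160 and NCU07853, with Pearson correlations of 0.990, 0.987 and 0.983 of log2(FPKM + 1). The 6 values share their libraries and the strain difference, so the coefficients are a description. All had wild-type library 2 as their highest wild-type library and no overlap between the strains. This largely follows from their choice by likeness to *hex-1*. Of all tested genes, 10.4% were higher in the mutant without overlap and 1.73% were called higher. NCU05160 was at 63.1, 92.9 and 59.1 FPKM in wild type and at 119, 107 and 119 FPKM in the mutant. It passed the threshold (change 0.70, adjusted p = 0.0418, limma), but was called in only 6 of the 15 alternatives, and the call was lost without any of the libraries other than wild-type library 2 (adjusted p = 0.0869 to 0.181, limma). NCU07853 was abundant too, at 1073 ± 162 FPKM in the wild type and 1365 ± 60.7 FPKM in the mutant (SD, n = 3, adjusted p = 0.117, limma).

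For *wsc* the most alike were NCU05203, the glucoamylase gene *gla-1* and NCU07165, with correlations of 0.988, 0.985 and 0.978 over the 6 libraries. NCU07165 was also close to *wsc* in level, at 61.5 ± 6.38 FPKM in the wild type and 54.7 ± 4.47 FPKM in the mutant (SD, n = 3). In none of these 3 genes did the strains separate, and 0 of the 3 were called (limma; 0 had an unadjusted p under 0.05). This largely follows from their choice by likeness to *wsc*, in which the strains also overlapped. Of all tested genes, 32.3% did not overlap, 4.99% were called and 25.9% had an unadjusted p under 0.05 (limma).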

How the data were processed

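RNA-seq libraries were made from conidia grown for 5 hr, 3 per strain, after depletion of ribosomal RNA and with a strand-specific kit. The authors aligned the reads to version 12 of the genome with TopHat2 2.0.14 and normalized with Cuffnorm (version not given), per the submitters' processing notes, and deposited 1 table of FPKM per transcript without counts. The total reads per library are thus unknown. The steps between low FPKM values of single-transcript genes gave relative depths of 0.887 to 1.73, with 44.3% to 63.0% of low values on such steps, too few to recover reads, so no count test was run. A value of 0 may be a failed estimate.

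Columns were matched to strains by name. Transcripts were summed to genes with NCU identifiers, of which 9729 were in the RefSeq gene table of NC12, the source of symbols and positions. log2(FPKM + 1), which understates the change of low genes, was tested with limma 3.58.1 (R 4.3.3, eBayes with trend) over genes whose mean reached 1 FPKM. Tests were two-sided, p-values were adjusted by Benjamini-Hochberg, and genes under 0.05 were called. The ratio of *hex-1* to *wsc* and the transcript share of *wsc* were compared with exact permutation tests over all labelings. Tables and plots used Python 3.11.15, numpy 2.4.6, pandas 2.3.3 and matplotlib 3.10.9. The fit was tested on simulated data with independent noise and with changes larger than that of *hex-1*. No shift of whole libraries or by level was simulated, so that test does not show how the fit behaves under such shifts. The members and the gene lists were chosen with earlier results of these data known. The genes named were the members, *hH1*, every septal pore and septum gene matched, the called, highest and lowest genes of the peroxin and matrix lists, the 3 genes of most similar profile (Pearson correlation), the nearest genes in wild-type level and the 2 genes to either side on the linkage group. *pex3*, *pex4*, *pex5*, *pex8*, *pex11*, *pex13*, *pex14*, conidial and growth markers, *gpd-1* and the ratio to *pex5* were added after their values were seen or for their role. The alternatives were another pseudocount, other filters, transcripts tested singly, median centring, quantile normalization, removal of the trend with gene length, other variance models and leaving out each library. Values without *gpd-1*, the spread without wild-type library 2 and the list counts under other scalings were added after the data were seen. No protein or promoter sequence was used here.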

Additional observations from a re-analysis of the deposited data

How the results depend on the processing

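The higher *hex-1* level in the mutant kept its direction under all 15 alternatives. It passed the threshold with a filter at 5 FPKM (0.62, adjusted p = 0.0456), with median centring (0.73, adjusted p = 0.0439), with robust variance (0.62, adjusted p = 0.0497) and without wild-type library 2, and leaving out each library gave 0.51 to 0.83 (limma). *wsc* was called under 0 of the 15 (limma; 0 in the fit as reported at an unadjusted p under 0.05). The 360 called genes (125 higher, 235 lower) became 188 without a filter, 45 for single transcripts, 225 with the length trend removed, 135 without a variance trend and 29 to 372 with each library left out, the lowest without wild-type library 1. Centring moved the median change by 0.10 and the split to 281 higher and 140 lower, and quantile normalization gave 158 higher and 173 lower. The count of called septal pore genes fell from 1 to 0 for single transcripts and with the length trend removed, and was 0 to 1 with each library left out. That of the matrix genes fell from 1 to 0 with a pseudocount of 0.1, without a filter, for single transcripts, with centring, with the length trend removed and without a variance trend, and was 0 to 1 with each library left out.

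Among the genes named in the report, with the conidial and growth markers left aside, some changes that were never called turned direction. Peroxins not named in the text were not counted here. With centring these were *pex5* (0.046), *pex14* (0.10), *bud4* (0.038), *rgf3* (0.031) and NCU08333 (0.068). With quantile normalization they were *pex14* (0.028), *bud4* (0.012), *rgf3* (0.041) and NCU04276 (-0.10). With the length trend removed they were *pex13* (0.027), *pex5* (0.080), *bud4* (0.26), *rgf3* (0.26) and NCU08333 (0.017), and for single transcripts *pex11* (-0.15) and *rho-4* (0.020). With each library left out, *pex5* ranged from -0.18 to 0.10, *pex14* from -0.10 to 0.10, *bud4* from -0.13 to 0.024, *rgf3* from -0.20 to 0.024, NCU08334 from -0.038 to 0.21, NCU08333 from -0.20 to 0.088 and NCU07840 from -0.019 to 0.47. The cause was not tested.

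No paired analysis was possible because the table's column names show the strain only, and the replicate numbers of the labels are not tied to them. No transcript share exists for *hex-1*, which has 1 transcript. The share of *hex-1* with *gpd-1* left out was added after the data were seen. The number of libraries, 3 per strain, and the unknown depth limit the precision of every value.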
